A study of Mus musculus with 4 samples.

Results

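Cytosolic heat shock proteins are the chaperones that keep other proteins folded in the cytosol and nucleus. The set described here is 10 genes: the small heat shock proteins Hspb1 and Cryab, the stress-inducible HSP70 genes Hspa1a and Hspa1b, the constitutive HSP70 gene Hspa8, the HSP110 gene Hsph1, the J protein gene Dnajb1, Hsp90aa1, the cochaperone gene Bag3 and the heat shock factor gene Hsf1. They were chosen by gene symbol, as every non-control probe on the array that carried one of these names. This gave 17 of 56605 probes, for 10 of 27248 gene names, and 16 of the 17 were well above background on all 4 arrays. The 10 genes were proposed with their values on these arrays already known, so all of their values are given as a description, with no test.

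RNA of the prefrontal cortex of B6J mice, 3 months old, was measured on one-colour Agilent arrays. The groups crossed diet with genotype, and from postnatal day 21 all mice were kept on starch or on sucrose for about 70 days. The wild-type mice on starch were the study's control group, and the other groups were wild-type mice on sucrose and mice heterozygous for Glo1 on starch or on sucrose. Glo1 encodes glyoxalase 1, which detoxifies methylglyoxal, a reactive by-product of sugar breakdown; how the heterozygous allele was made is not given in the sources used here. Each group was 1 array of RNA pooled from 3 mice. There was therefore no replicate error for any group, and a difference between arrays cannot be told apart from a difference between pools, nor group from position on the slide. Signals are given as multiples of the array's 75th percentile of non-control spots, and differences as log2 differences of these multiples.

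In unstressed cells heat shock factor 1 is held inactive by chaperones; when unfolded proteins draw the chaperones away, the factor forms trimers and binds heat shock elements, which are inverted repeats of a short unit. The small heat shock proteins hold unfolding proteins without using ATP, HSP70 then refolds them with the help of a J protein and a nucleotide exchange factor, and HSP90 acts on late folding steps of kinases and receptors. In the brain Hspa8 and Hsp90aa1 are made constantly, mostly in neurons, whereas Hspa1a and Hspa1b are low until stress, and Hspb1 and Cryab are best known from glia and vessels.

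The promoter sequences are shown because the set shares a known regulator, and because Hspa1a and Hspa1b are near copies of each other. The RefSeq promoter table, of build GRCm38.p6, held windows of 250 bases before to 50 bases after the start for 6 of the 10 genes. The motifs searched were a pair of units head to head, GAANNTTC, a pair tail to tail, TTCNNGAA, and the runs of 3 units GAANNTTCNNGAA and TTCNNGAANNTTC, which each contain both pairs; each pair reads the same on both strands, and each run is the other read on the opposite strand. The 250 bases before the start are printed 5′ to 3′ on the gene's strand, with each pair in capitals, for chr5:135887669-135887918 on the plus strand (Hspb1), chr17:34972157-34972406 on the minus strand (Hspa1a), chr17:34959239-34959488 on the minus strand (Hspa1b) and chr5:149636337-149636586 on the minus strand (the outer of the starts listed for Hsph1).
Hspb1: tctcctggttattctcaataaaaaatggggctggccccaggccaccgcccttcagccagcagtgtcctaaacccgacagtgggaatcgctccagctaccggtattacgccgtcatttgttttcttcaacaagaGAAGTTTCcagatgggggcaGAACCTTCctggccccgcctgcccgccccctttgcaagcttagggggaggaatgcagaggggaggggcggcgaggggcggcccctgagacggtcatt
Hspa1a: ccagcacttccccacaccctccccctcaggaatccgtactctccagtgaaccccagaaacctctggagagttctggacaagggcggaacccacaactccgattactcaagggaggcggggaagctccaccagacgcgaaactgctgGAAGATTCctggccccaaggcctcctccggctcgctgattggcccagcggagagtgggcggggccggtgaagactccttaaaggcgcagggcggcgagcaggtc
Hspa1b: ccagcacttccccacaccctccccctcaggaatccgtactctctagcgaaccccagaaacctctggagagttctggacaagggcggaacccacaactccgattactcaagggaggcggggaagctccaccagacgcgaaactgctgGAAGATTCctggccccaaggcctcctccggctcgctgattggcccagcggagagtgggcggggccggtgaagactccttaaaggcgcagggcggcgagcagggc
Hsph1: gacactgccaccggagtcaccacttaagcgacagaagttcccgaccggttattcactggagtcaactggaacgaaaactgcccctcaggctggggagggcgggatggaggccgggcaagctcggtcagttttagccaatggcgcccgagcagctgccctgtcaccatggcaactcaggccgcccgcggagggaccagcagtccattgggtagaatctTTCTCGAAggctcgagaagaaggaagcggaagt
Hspb1 held a head-to-head pair from -117 to -110 and another from -97 to -90. Hspa1a and Hspa1b each held 1 such pair, both from -104 to -97, and their upstream stretches were the same at 247 of 250 bases. Hsph1 held a tail-to-tail pair before the start and a run of 3 units after it. Bag3 held a head-to-head pair after the start only, and neither Dnajb1 window held a pair. A pair in either order occurred in 15.1% of the 32817 promoter windows in the table, and a run of 3 units in 0.603%. A match is a string of letters and was not tested as a binding site.

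**Figure D1:**
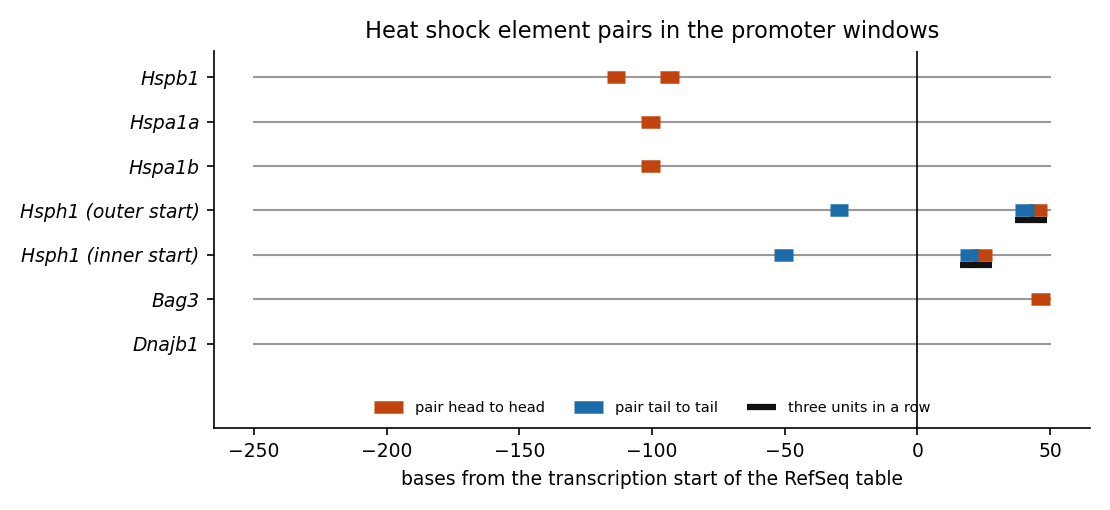
Heat shock element letters in the promoter windows of the 6 genes in the RefSeq table, 1 line per start site, by distance in bases from the transcription start. Coloured blocks are pairs of units and black bars runs of 3 units; the pairs of Hspb1, Hspa1a and Hspa1b lie between -117 and -90, and the Dnajb1 line, the same for both of its starts, holds none.

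The arrays were alike in overall signal: the 75th percentile lay between 1780 and 1929 intensity units, and 77.6% to 80.2% of spots were well above background. The label of genotype was checked on Glo1, whose signal in heterozygous mice was 67.7% of the wild-type value on starch and 55.0% on sucrose. All 7 excitatory neuron markers were measured, with summed levels from 62.7 to 86.0 over the arrays. The heterozygous sucrose array stood apart in choroid plexus markers, whose summed level was 11.2 there against 0.653 to 0.760 on the other arrays. Striatal markers, of which 8 of 9 were measured, summed to 53.3 and 49.5 on the wild-type sucrose and heterozygous starch arrays, against 32.3 and 27.6 on the wild-type starch and heterozygous sucrose arrays. The wild-type diet comparison does not use the heterozygous sucrose array. In tissue RNA, fewer cells of a type and less RNA per cell cannot be told apart.

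The 10 genes were on the whole lower on sucrose, and the most strongly lower were Hspb1 and Hspa1b. In wild-type mice 10 of 10 were lower on sucrose, beside 50.1% of all 20655 genes measured, and in heterozygous mice 9 of 10, beside 49.9%. The median log2 difference of the set was -0.26 without and -0.27 with the Glo1 mutation, against -0.00072 and 0.00035 for all genes. None of the 10 reached a 2-fold difference in either genotype, a size that 0.992% of genes passed downwards and 0.484% upwards with wild-type genotype, and 0.479% and 1.29% with heterozygous genotype. At 1.5-fold, Hspb1, Hspa1a and Hspa1b were lower in wild-type mice (3 of 10, beside 3.53% of genes), and Hspb1 and Hspa1b in heterozygous mice (2 of 10, beside 2% of genes). Large differences were rarer among bright genes, where 0.749% were lower by 1.5-fold in wild-type mice and 0.542% in heterozygous mice; 8 of the 10 are in this brightest quartile of probes, all but Hspa1b and Bag3.

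**Figure D2:**
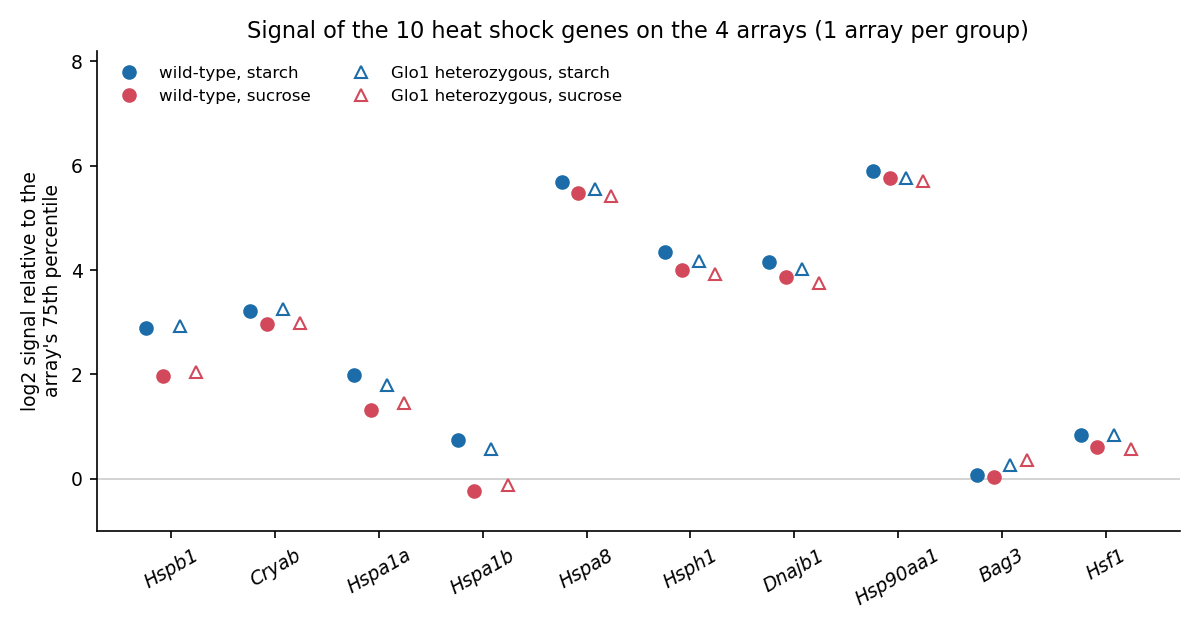
Log2 signal of each gene's brightest probe relative to the array's 75th percentile, 1 point per array, circles for wild-type and open triangles for heterozygous mice, blue for starch and red for sucrose. The blue points of Hspb1 lie 0.84 above its red points at the nearest, while the points of Bag3 are not ordered by diet; heights of different genes come from different probes and are not comparable.

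Hspb1, a small heat shock protein that binds unfolding proteins and actin, had a signal of 7.41 in wild-type starch, 3.93 in wild-type sucrose, 7.58 in heterozygous starch and 4.15 in heterozygous sucrose (probe at chr5:136365366-136365425, mm9, plus strand). Both starch arrays were high and close to each other, both sucrose arrays low and close to each other, and the diets did not overlap. Sucrose was 53.0% of starch in wild-type and 54.7% in heterozygous mice, log2 differences of -0.91 and -0.87. Only 1.22% of all genes had a lower diet value in wild-type mice, and 0.779% in heterozygous mice. The genotype differences of Hspb1 were 0.03 on starch and 0.08 on sucrose.

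Cryab, the αB-crystallin gene, encodes the other small heat shock protein of the set and is strongly made in oligodendrocytes. Its signals were 9.28, 7.82, 9.58 and 7.89 in the order wild-type starch, wild-type sucrose, heterozygous starch and heterozygous sucrose, an order kept below. Again both starch arrays lay above both sucrose arrays, with a nearest gap of 0.23 on the log2 scale. The log2 diet differences were -0.25 and -0.28. All 7 oligodendrocyte markers were also lower on sucrose in wild-type mice, with a median of -0.12, and 4 of 7 in heterozygous mice, with a median of -0.08; their part in the Cryab values was not tested.

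Hspa1a and Hspa1b are neighbouring genes for nearly the same inducible HSP70 protein. The probe of Hspa1a (chr17:35106766-35106825, mm9, minus strand) and that of Hspa1b (chr17:35093374-35093405, mm9, minus strand, a span shorter than the probe) shared no run of bases longer than 5. Whether either probe also matches the transcript of the other gene was not tested. The 2 values can therefore not be taken as separate measures of the 2 genes. Hspa1a had signals of 3.97, 2.51, 3.47 and 2.73. Hspa1b had signals of 1.68, 0.855, 1.48 and 0.918. In both genes the wild-type starch array was highest, the heterozygous starch array next, and the sucrose arrays were lowest, wild-type below heterozygous. On sucrose Hspa1a was 63.1% of starch in wild-type and 78.7% in heterozygous mice, log2 differences of -0.66 and -0.35. Hspa1b was 50.8% and 61.9% of starch, log2 differences of -0.98 and -0.69, the first just short of 2-fold. For Hspa1a the diet difference in heterozygous mice was 0.32 less negative than in wild-type mice, and for Hspa1b 0.29 less negative.

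Hspa8 encodes the constitutive HSP70, which also strips clathrin from endocytic vesicles. Its brightest probe read 51.8, 44.6, 47.1 and 42.8, with both sucrose arrays below both starch arrays by a nearest gap of 0.08. Its log2 diet differences were -0.22 and -0.14 in wild-type and heterozygous mice, or -0.11 and -0.073 after quantile normalization. Hspa8 was read by 4 probes, which are shown because they sample separate stretches of 1 transcript and so measure the same difference several times. They are given 5′ to 3′ in lower case, with no letters marked, the first at chr9:40610620-40610679, the second at chr9:40611362-40611421, the third at chr9:40611841-40611900 and the fourth, the brightest, at chr9:40612755-40613050 (mm9, plus strand; that span is longer than the probe).
A_66_P137434: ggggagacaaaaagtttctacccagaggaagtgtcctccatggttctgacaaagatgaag
A_55_P2910890: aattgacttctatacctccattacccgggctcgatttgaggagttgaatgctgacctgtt
A_55_P2909278: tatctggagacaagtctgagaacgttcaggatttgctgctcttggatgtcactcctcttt
A_55_P2069721: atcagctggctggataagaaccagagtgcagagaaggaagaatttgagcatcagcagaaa
In this order the log2 diet differences were -0.25, -0.20, -0.26 and -0.22 in wild-type mice and -0.23, -0.10, -0.18 and -0.14 in heterozygous mice. All 8 values were below 0. Probes of 1 transcript on 1 array share the same RNA pool and are not replicates of the diet.

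Hsph1 encodes HSP110, a nucleotide exchange factor of HSP70. Its brightest probe (chr5:150419744-150419803, mm9, minus strand) read 20.4, 15.9, 18.1 and 15.1, with the starch arrays above the sucrose arrays by 0.18 at the nearest. The log2 diet differences were -0.36 and -0.26 with this probe (-0.28 and -0.23 after quantile normalization) and -0.40 and -0.29 with a nearby one. A much dimmer probe toward the other end of the transcript record (chr5:150434622-150434681) gave -0.43 and -0.46. The 3 probes shared the direction of the diet difference but not that of genotype: on starch the heterozygous array was lower by the brightest probe (-0.17, or -0.071 after quantile normalization) and the nearby one (-0.13), and higher by the dim probe (0.20).

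Dnajb1, the J protein that brings clients to HSP70 and stimulates its ATPase, read 17.7, 14.7, 16.2 and 13.4. Its diet difference was -0.27 in each genotype, which is 82.9% of starch in both, and its genotype difference was -0.13 on each diet, or -0.040 on starch and -0.077 on sucrose after quantile normalization. The heterozygous sucrose array was thus the lowest and the wild-type starch array the highest. Hsp90aa1, the inducible form of cytosolic HSP90, read 59.3, 54.3, 54.5 and 52.1. The wild-type starch array was highest, and the wild-type sucrose and heterozygous starch arrays lay only 0.0054 apart on the log2 scale. The diet differences were -0.13 and -0.06 with this probe and -0.09 and 0.05 with a further one, and the first probe gave -0.052 and 0.010 after quantile normalization, so that the direction there depended on probe and scaling. The last Hsp90aa1 probe, designed on an expressed sequence tag, was well above background on 0 of 4 arrays and gave no value.

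**Figure D3:**
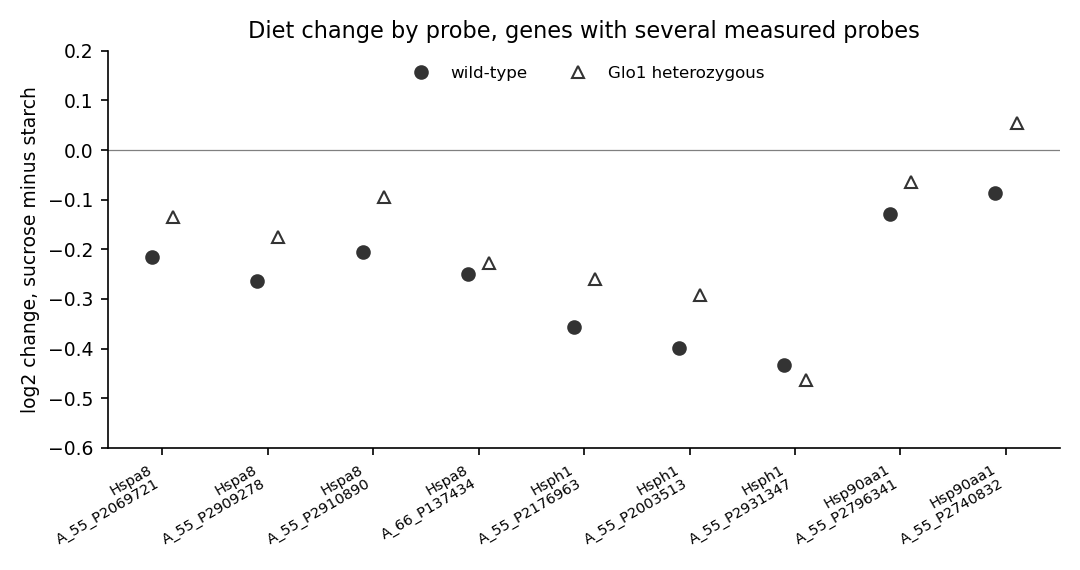
Log2 diet difference, sucrose minus starch, of each measured probe of the genes with several measured probes, circles for wild-type and open triangles for heterozygous mice. All Hspa8 and Hsph1 points lie below 0, and of the Hsp90aa1 points 1 lies above 0, at 0.05 in heterozygous mice.

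Bag3, a cochaperone that links HSP70 to small heat shock proteins and to autophagy, was the exception in the set. It read 1.05, 1.03, 1.21 and 1.28, with the wild-type arrays low and the heterozygous arrays high. Its diet differences were -0.02 and 0.08, and its genotype differences 0.20 on starch and 0.31 on sucrose. Hsf1, the transcription factor itself, read 1.79, 1.53, 1.79 and 1.48. The starch arrays were nearly equal, and both lay 0.23 or more above the sucrose arrays on the log2 scale. The diet differences of Hsf1 were -0.23 and -0.28.

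For 9 of the 10 genes, all but Bag3, both starch arrays lay above both sucrose arrays, beside 20.1% of all genes measured. With scaling to the median, quantile normalization or the mean over a gene's probes it was 8 of 10. The same 9 were lower in each genotype taken alone, beside 30.2% of all genes, and 8 of 10 were after quantile normalization. Hspb1 and Hspa1b were lower by 1.5-fold or more in both genotypes, as were 0.804% of all genes. The diet comparisons of the 2 genotypes share no array. The only yardstick of error on these arrays is the spread of repeated spots within an array. Scaled to a log2 difference of 2 spots, its SD was 0.068 for bright probes printed 10 times (291 probes). For the signal quartile of Hspa1b and Bag3 it was 0.12 (5 probes). This spread covers spots within an array and leaves out differences between arrays, mice and pools, so it is no test of diet. In wild-type mice 8 of the 10 diet differences were larger than 2 such SDs, all but those of Hsp90aa1 and Bag3. After quantile normalization that of Hspa8 (-0.11) also fell short. All 8 genes were lower on sucrose, as were 15.6% of the 16793 genes in signal quartiles that hold repeated probes. In heterozygous mice it was 7 of 10, all lower, beside 13.2% of these genes, with Hspa8 just under. Within the brightest quartile it was 7 of 8 members in wild-type mice, beside 15.6% of genes, and 6 of 8 in heterozygous mice, beside 15.8%.

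**Figure D4:**
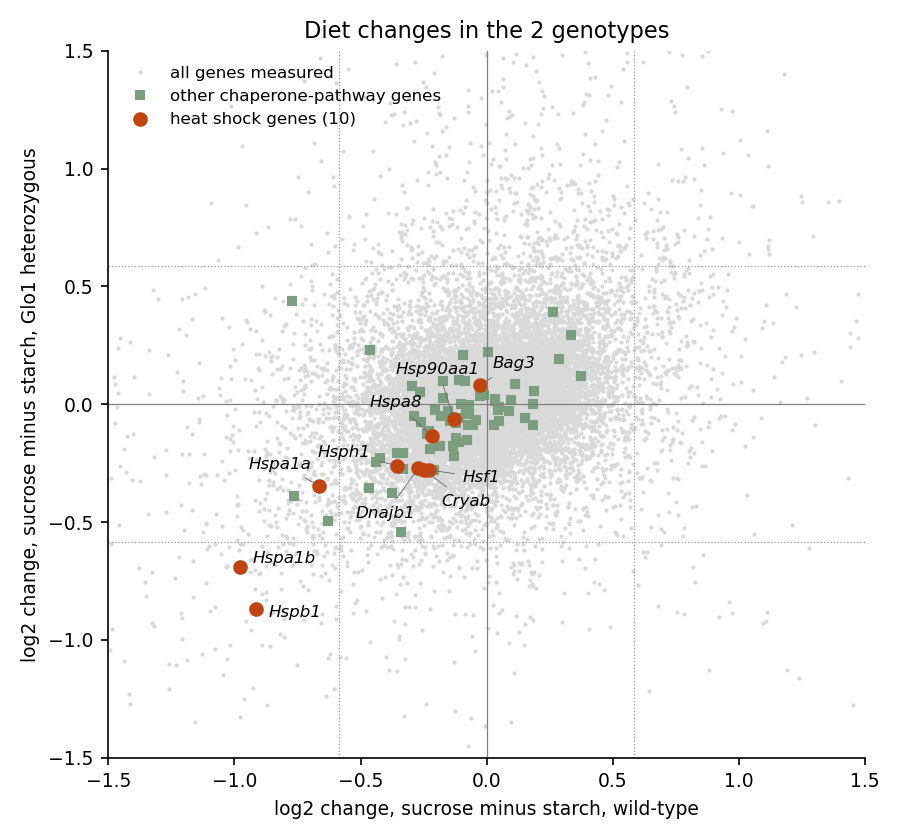
Log2 diet difference, sucrose minus starch, in wild-type mice (horizontal) against heterozygous mice (vertical), 1 point per gene: grey for all genes measured, green squares for other chaperone-pathway genes and orange for the 10 heat shock genes; dotted lines mark 1.5-fold. Hspb1 and Hspa1b lie past both dotted lines at the lower left and Bag3 near the origin; 260 genes with a value of 1.5 or more in size on either axis lie outside the plot.

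By the median, genotype differences of the set were smaller than its diet differences. On starch, 6 of 10 genes were lower in heterozygous mice, beside 54% of genes, with a median log2 difference of -0.12. On sucrose it was 5 of 10, beside 54.9%, with a median of -0.02. No member passed 1.5-fold by genotype in either direction, a size that 2.48% of genes passed downwards and 1.48% upwards on starch, and 1.29% downwards and 3.29% upwards on sucrose. These medians depended on the scaling: after quantile normalization they were -0.022 and 0.052. The largest genotype difference of the set was that of Bag3 on sucrose (0.31), followed by Bag3 on starch (0.20) and by Hspa1a, Hspa1b and Hsph1 on starch (-0.20, -0.18 and -0.17). With both factors together, heterozygous mice on sucrose against the wild-type starch control, 9 of 10 genes were lower, beside 52.7% of genes. The median was -0.34, and Hspb1 (-0.84) and Hspa1b (-0.88) were lower by 1.5-fold or more, as were 3.39% of genes. This comparison shares its arrays with the others. The diet difference of heterozygous mice minus that of wild-type mice was above 0 for 7 of the 10 genes, beside 50.5% of all genes, with a median of 0.07 (0.041 with scaling to the median and 0.043 with normexp background correction) and a range from -0.05 (Hsf1) to 0.32 (Hspa1a). No gene of the set reached 2-fold in it, where 2.08% of all genes did upwards and 0.794% downwards.

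The rest of the cytosolic chaperone network was read from 8 lists of 66 genes, all of them measured. By its brightest probe, none of the 66 passed 2-fold between starch and sucrose in either genotype, where 0.992% (wild-type) and 0.479% (heterozygous) of all genes did downwards and 0.484% and 1.29% upwards. Dimmer probes of 2 genes did: 1 of Bag6 was higher by 1.46 in wild-type mice, and 1 of Hsf5 by 1.13 in heterozygous mice. Over the 66 genes the median log2 diet differences were -0.11 (wild-type) and -0.05 (heterozygous; -0.011 after quantile normalization), and 36 genes were lower and 11 higher in both genotypes (54.5% and 16.7%, beside 30.2% and 30.1% of all genes). In 27 of 66 (40.9%, beside 20.1% of all genes), both starch arrays lay above both sucrose arrays. At 1.5-fold, 3 of the 66 were lower in wild-type mice (Hspb7, Hspa1l and Chordc1), close to the 3.53% of all genes, and 0 in heterozygous mice, beside 2%. Other probes passed 1.5-fold downwards for Dnajb2 in wild-type mice (-0.86) and for Dnajc5 (-0.89), Dnajb5 (-0.65) and Chordc1 (-0.60) in heterozygous mice, and upwards, besides those of Bag6 and Hsf5, for Dnajb4 in wild-type mice (0.82).

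HSP90 and its cochaperones were the list with medians nearest to those of the 10 genes. Here and below, the lowest and the highest gene of a list are those by the mean of both diet differences, and another gene can lie further out in 1 genotype. In each genotype 11 of 12 were lower on sucrose, 10 of them in both, with medians of -0.22 and -0.17. With the mean over a gene's probes it was 10 and 8 of 12, and under quantile normalization 10 and 9. Other probes of Fkbp5 (0.22 and 0.21) and Cdc37 (0.15 in heterozygous mice) were higher on sucrose. Chordc1, an HSP90-binding cochaperone, was lowest in this list: it read 3.36, 2.18, 3.12 and 2.21, log2 differences of -0.63 and -0.50. Its starch arrays were close to each other and clearly above its sucrose arrays, and its other measured probe gave -0.47 and -0.60. Stip1, which bridges HSP70 and HSP90 and was picked after its values were seen, read 3.12, 2.26, 2.70 and 2.11, differences of -0.46 and -0.36. Unc45a, a myosin chaperone, was the highest in the list, at 0.09 and -0.03.

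J proteins other than Dnajb1 were lower in both genotypes in 7 of 10 genes, with medians of -0.14 and -0.06. Dnajb5, a relative of Dnajb1, stood lowest, at -0.34 and -0.54, and its other 2 measured probes lay between -0.65 and -0.32. Dnajb14 was highest, at 0.10 and 0.02. Of other genes known to be induced by HSF1, 5 of 6 were lower in both genotypes, with medians of -0.16 and -0.06, or -0.10 and -0.018 after quantile normalization. Under that normalization 4 of 6 were lower in heterozygous mice. The lowest by the mean of both diet values was Serpinh1, the collagen chaperone of the endoplasmic reticulum (-0.44 and -0.25). Subunits of TRiC, the ring chaperonin that folds actin and tubulin, were lower in 8 of 8 in wild-type and 4 of 8 in heterozygous mice, with medians of -0.09 and -0.01 and extremes in Cct4 (-0.23 and -0.11) and Cct2 (-0.03 and 0.04). Under quantile normalization it was 6 and 2 of 8, and with the mean over a gene's probes 8 and 2 of 8. The other 2 measured Tcp1 probes were higher on sucrose in wild-type mice (0.05 and 0.11).

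The remaining lists were mixed. Small heat shock proteins other than Hspb1 and Cryab were lower in both genotypes in 2 of 8 genes and higher in 4 of 8, with medians of -0.06 and 0.15, and none of the 8 had a probe in the brightest signal quartile. Hspb9, best known from testis, was lowest by the mean of both diet values (-0.29 and -0.05), with Hspb7 lower in wild-type mice alone (-0.77, against 0.44 in heterozygous mice), and Cryaa, the lens crystallin, was highest (0.26 and 0.39). Other HSP70 and HSP110 genes were lower in both in 4 of 8, from Hspa1l (-0.76 and -0.39, a dim probe) to Hspa12a (0.29 and 0.19). HSP70 cofactors and BAG proteins had medians of 0.03 and -0.01, with 3 of 9 lower and 3 of 9 higher in both. Between processing settings, the sign differed for the medians of these cofactors in both genotypes, of the other small heat shock proteins in wild-type mice, and of TRiC and the heat shock factors in heterozygous mice. Other medians kept their sign and came closest to 0 at -0.042 for TRiC and 0.066 for the heat shock factors in wild-type mice, and at -0.00043 for the other HSP70 and HSP110 genes and 0.078 for the other small heat shock proteins in heterozygous mice. Among the HSP70 cofactors the HSP70-interacting protein gene St13 was lowest by its brightest probe (-0.36 and -0.21) but -0.07 and -0.03 by its other probe, and Hspbap1 was highest (0.38 and 0.12), with 0.25 and -0.34 by its other probe. Among heat shock factors other than Hsf1 and their binding proteins, 1 of 5 was lower in both genotypes, and the extremes by the mean of both diet values were Hsf4 (-0.13 and -0.22, but 0.06 and -0.39 by its other probe) and Hsf2 (0.18 and 0.00). Hsf2bp lay outside them in each genotype, in opposite directions (-0.46 and 0.23), but its other probe gave -0.05 and -0.08.

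**Figure D5:**
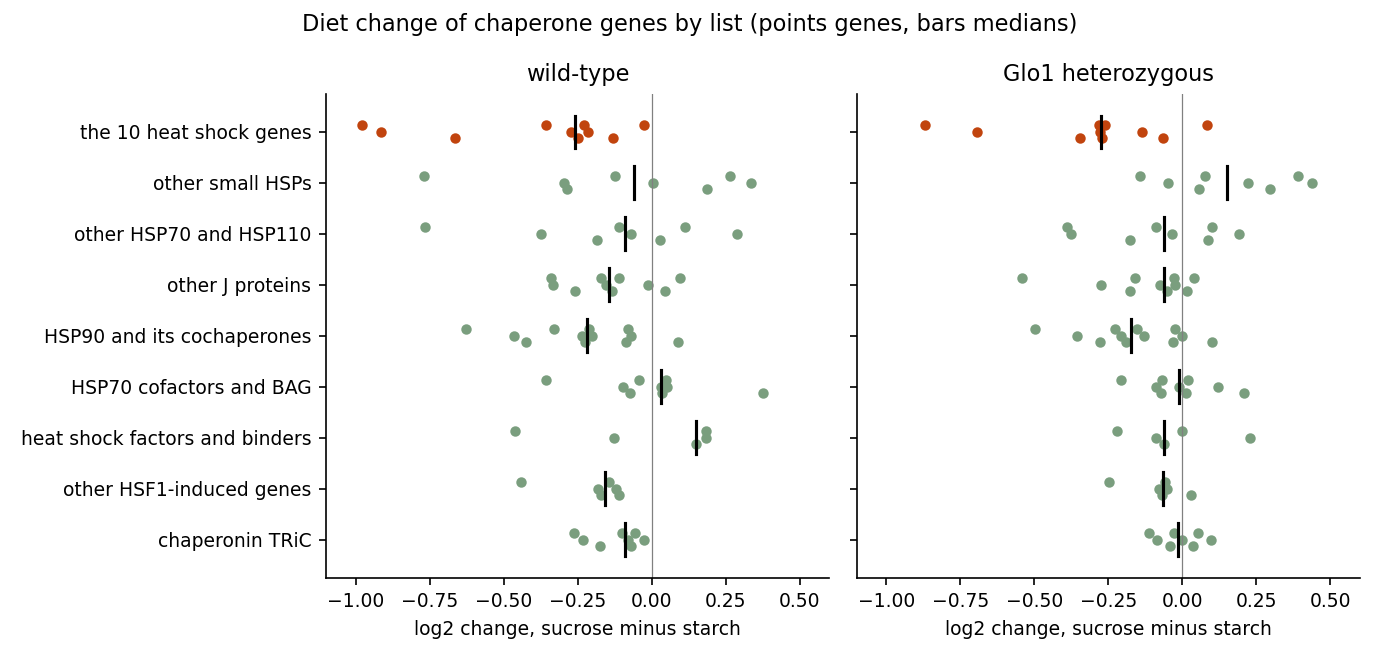
Log2 diet difference, sucrose minus starch, of the 10 heat shock genes (orange) and of 8 chaperone lists (green), 1 point per gene, with the median of each list as a bar, wild-type on the left and heterozygous on the right. The bar of the 10 genes lies at -0.26 and -0.27, that of HSP90 and its cochaperones at -0.22 and -0.17, and that of the other small heat shock proteins at -0.06 and 0.15.

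Blood markers and genes of neuronal activity were lower on sucrose in both genotypes. In each genotype all 6 blood markers were lower on sucrose, with medians of -1.46 and -0.78, and their summed level was 277 in wild-type starch, 135 in wild-type sucrose, 235 in heterozygous starch and 152 in heterozygous sucrose. Immediate early genes were lower in 9 of 10 in wild-type and 10 of 10 in heterozygous mice, with medians of -0.57 and -0.94. Their summed levels were 59.7, 42.0, 68.5 and 37.7. Striatal markers were higher on sucrose in 8 of 8 in wild-type mice (median 0.99) and lower in 8 of 8 in heterozygous mice (-1.02). Excitatory neuron markers were higher in 7 of 7 in wild-type mice (0.30) and in 4 of 7 in heterozygous mice (0.03), and interneuron markers had medians of -0.06 and -0.23. The choroid plexus medians were 0.40 and 4.11, those of microglia -0.02 and -0.03, and those of meningeal fibroblasts 0.20 and 0.28. Astrocyte markers had medians of -0.21 and -0.08, endothelial markers 0.04 and -0.04, and mural cell markers 0.02 and -0.07. The part of any of these cell types or of activity genes in the heat shock values was not tested.

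The gene with the widest range among the 10 was Hspa1b, which spanned 0.98 on the log2 scale. Of the 10326 genes above the median signal, those nearest to its pattern over the 4 arrays, by Euclidean distance of centred log2 values, were Cdkn1a, a cell cycle inhibitor (0.058), the α-globin genes Hba-a2 (0.070) and Hba-a1 (0.071), Manf, an endoplasmic reticulum stress protein (0.14), and Hspb1 (0.16). Hspa1a stood at rank 32 and Bag3 at rank 6974. These distances rest on 4 single arrays and describe only them.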

How the data were processed

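Prefrontal cortex RNA of the 4 groups, 1 pool and 1 array each, was grouped by the sample labels; the 10 genes, the chaperone lists and the marker lists were chosen with earlier results of these data known. The deposited intensity values are the processed signals of Agilent Feature Extraction 11.5.1.1, background-subtracted and detrended within the array, per the file headers. The authors also deposited a matrix of ratios; on comparison each column was the processed signal of 1 array divided by a constant close to that array's 75th percentile, with column medians of 0.0763, 0.0755, 0.0759 and 0.0777. From these, the log2 ratio of each deposited processed signal to the 75th percentile of the array's non-control spots was taken. Control and outlier-marked spots were left out, spots of a probe were averaged, and probes well above background on all 4 arrays were kept. The brightest probe stood for its gene. The number of arrays limits the precision, and no p-value was computed. Named genes were all members, any list gene past 2-fold between 2 arrays, the lowest and highest gene of each list by mean diet difference, and the 5 nearest patterns. The highest gene of 1 list is not reported here. Alternatives used limma 3.58.1 (normexp with an offset of 50, and quantile normalization). The counting of calls was tested on simulated data. All 10 members and all 66 list genes were current symbols of the RefSeq table. Probe coordinates are the files', on mm9, and promoter coordinates RefSeq's, on GRCm38.p6; neither was converted. Whether a probe lies in an exon or a UTR was not looked up, since no annotation of mm9 was used here.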

Additional observations from a re-analysis of the deposited data

Results flagged for a closer look

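The genotype difference had opposite signs on the 2 diets, with both values larger than the spot SD of the probe's signal quartile, for 3 of the genes named by rule. The share of all genes that meet the same condition was not counted, so whether 3 is many cannot be said. Hspa1a was lower in heterozygous mice on starch (-0.20) and higher on sucrose (0.12), a gap of 0.32 on the log2 scale. St13 was at -0.08 and 0.08, a gap of 0.15, and Hspbap1, in the other order, at 0.12 and -0.13, a gap of -0.25. The size of both gaps depended on the probe. By the other probe the diet differences in wild-type and heterozygous mice were -0.07 and -0.03 for St13, and 0.25 and -0.34 for Hspbap1. Hspa1b also had opposite signs (-0.18 and 0.10, a gap of 0.29), with the second value inside the spot SD of 0.12. With 1 array per group, the difference between the diets was not tested for any of these genes. Among list genes not named by the rule, Hspb7 (-0.96 and 0.25) and Bag4 (-0.15 and 0.15) also had opposite signs with both values past the spot SD. Hsf2bp had opposite signs (-0.24 and 0.46) in a quartile whose probes gave no spot SD, as did the named gene Hspa1l (-0.26 and 0.12). The other Hsf2bp probe gave diet differences of -0.05 and -0.08 in wild-type and heterozygous mice, against -0.46 and 0.23. Hspb7, Bag4, Hsf2bp and Hspa1l were picked here after their values were seen.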

How the results depend on the processing

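A diet comparison paired by genotype was not run, because each group had 1 array. For the same reason no replicate could be left out. Changing the threshold from 2-fold to 1.5-fold changed the count of members called lower from 0 to 3 for diet in wild-type mice, to 2 for diet in heterozygous mice and to 2 for both factors together. Quantile normalization changed the median member difference by genotype from -0.12 to -0.022 on starch and from -0.018 to 0.052 on sucrose; the cause was not tested. Of the 8 alternative settings, 4 could not or did not move any single member value by over 0.001 (the authors' matrix, outlier-marked spots kept, and either filter on dim probes) and say nothing of stability. Under the other 4, 194 values differed from those reported, 176 of them by less than the spot SD; 15 moved by more under quantile normalization and 3, all of Hsph1, with the mean over a gene's probes. The signs of the wild-type diet differences were kept for 10 of 10 genes in these 4 settings. In heterozygous mice they were kept for 9 of 10, the exception being Hsp90aa1, which ranged from -0.09 to 0.01. For genotype the sign was kept for 9 of 10 genes on starch and 6 of 10 on sucrose. Hspb1 ranged from -0.92 to -0.91 and Hspa1b from -0.98 to -0.94 in wild-type mice, and from -0.90 to -0.87 and from -0.72 to -0.67 in heterozygous mice. Signal limits what can be read from the dim probes, among them Hspa1l, Hspb7 and 1 of the Hsph1 probes.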

Other observations

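Among the 7746 genes of the brightest signal quartile, 17 were lower by 1.5-fold or more on sucrose in both genotypes, and Hspb1 was one of them. The lowest by wild-type value was Th, the tyrosine hydroxylase gene of catecholamine neurons (-2.14 and -0.81, wild-type first). The others were the globin genes Hbb-b1, Hbb-b2, Hbb-bt, Hba-a1 and Hba-a2, the activity-induced genes Fos, Egr1, Fosl2 and Npas4, the neuronal developmental genes Pbx3 (-0.95 and -0.92) and Dlx6os1 (-0.96 and -0.67), Etnppl, an astrocyte enzyme gene (-0.64 and -0.60), and Hspa5, Manf and Creld2. The last 3 belong to the unfolded protein response of the endoplasmic reticulum: Hspa5 was at -0.65 and -0.68, Manf at -0.80 and -0.62 and Creld2 at -0.64 and -0.72. This grouping was made after the values were seen, and the relation of these genes to the cytosolic heat shock genes, to each other or to the dissected region was not tested.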
